A study of Mus musculus with 50 samples.

Results

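The genes described here are Runx1, its binding partner Cbfb, and Gfi1, Gfi1b and Sfpi1, which are counted among the targets of the RUNX1 protein in blood development. They were chosen by name, and all 5 had a row among the 11879 gene rows of the table. The series holds 50 single mouse cells of 1 group, hemogenic endothelial cells that were made in culture from embryonic stem cells and are called iRunx1-iHECs. The stem cells were of the C57BL/6 strain and carried a Runx1 cassette in the Rosa26 locus, which doxycycline switches on. The cassette also carries rtTA and a hygromycin resistance gene, doxycycline was in the medium before the sort, and whether the cells descend from 1 clone is not given in the sources used here. The cells had been sorted with the surface phenotype CD31+CD41lowCD45-c-kit+CD201high. There was no group without the cassette or without doxycycline, and no animal or culture is named for them. The 50 cells therefore count as a single sample without replicates, and no difference was tested. The value of Runx1 does not tell messages of the cassette from those of the gene at its own place in the genome.

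RUNX1 binds DNA as a pair with CBFβ, and this pair is needed for the step in which endothelial cells of the embryo turn into blood cells. GFI1 and GFI1B are zinc finger repressors that bring the LSD1-CoREST complex to DNA, and in hemogenic endothelium they are known for switching off endothelial genes. PU.1, the protein of Sfpi1 (now named Spi1), is an ETS-family factor that drives myeloid and early lymphoid genes.

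The genes lie on 4 chromosomes of GRCm38. Runx1 occupies chr16:92601466-92826149 and Gfi1 chr5:107716657-107726036, both on the minus strand. Gfi1b occupies chr2:28609450-28621982 on the minus strand and Sfpi1 chr2:91082390-91115756 on the plus strand, and Cbfb occupies chr8:105170674-105217989 on the plus strand. Antisense genes overlap Runx1 (Gm26626) and Gfi1 (A430072P03Rik), and the small RNA genes Gm22063 and Gm24629 lie within Cbfb. None of these 4 has a row of its own. Since the counting was not stated to use strand, reads of such a neighbour could not be told from those of the gene.

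The starts of Gfi1b and Gfi1 are shown because these related repressors differed in how many cells held them, and the start of Runx1 because it holds letters that the RUNX1 protein binds. The sequences are from RefSeq on GRCm38.p6, 5′ to 3′ on the strand of the gene, with motif letters in capitals. The first is the 250 bases before the start of Gfi1b (chr2:28621983-28622232, minus strand), the next the 250 bases before the inner start of Gfi1 (chr5:107724344-107724593, minus strand), and the last 24 bases of the first exon of Runx1 behind its distal start (chr16:92826028-92826051, minus strand, in the 5′ UTR).
Gfi1b upstream: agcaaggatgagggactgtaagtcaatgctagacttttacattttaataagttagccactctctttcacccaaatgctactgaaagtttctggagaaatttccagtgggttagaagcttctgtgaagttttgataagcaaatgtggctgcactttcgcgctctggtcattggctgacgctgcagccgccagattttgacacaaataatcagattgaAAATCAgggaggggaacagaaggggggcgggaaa
Gfi1 inner start upstream: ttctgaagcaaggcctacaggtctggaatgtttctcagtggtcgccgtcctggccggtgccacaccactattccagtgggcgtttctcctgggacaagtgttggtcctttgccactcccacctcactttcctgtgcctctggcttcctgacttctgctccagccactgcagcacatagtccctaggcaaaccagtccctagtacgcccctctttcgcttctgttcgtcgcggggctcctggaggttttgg
Runx1 first exon: aaacaACCACAgaACCACAagttg

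RefSeq windows from 250 bases before to 50 bases after a start were found for 4 of the 5 genes, with 2 starts each for Runx1 and Gfi1. Motifs of 6 letters for 4 kinds of factor were searched on both strands. The RUNX motif TGTGGT, which reads ACCACA on the other strand, stood in 16.8% of all 32851 windows. The GFI1 core AAATCA stood in 14.0% of these windows, the GATA motif AGATAA in 11.2% and the ETS motif GGAAGT in 23.8%, each counted on either strand. The Gfi1b window held AAATCA once, 34 bases before the start. The Runx1 window at the distal start held ACCACA at positions 29 and 37, counted from 1 at the start. The Cbfb window held GGAAGT 201 bases before the start and at position 5. Neither Gfi1 window and not the proximal Runx1 window held any of the 4 motifs. These matches are of letters only, and with such shares over all windows they describe the sequence and not a bound site.

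Sequencing depth cannot be read from TPM (an abundance per transcript length, scaled to a common total), so each cell is described by its number of genes above TPM 1. This number had a median of 6224 and a range of 2400 to 8615. Cell 4-6, named as the others by the 2 numbers of its title, stood apart at the low end, and the next lowest cell had 4326. The endothelial label was borne by many of its markers. All 24 genes of the endothelial list passed TPM 1 in 20% of cells or more, and Cdh5, Pecam1, Kdr and Tie1 did so in 50 of 50 cells. Pecam1 codes CD31, for which the cells had been sorted. Others of the list were held by fewer cells, with Hey1 in 14, Stab2 in 16, Jag1 in 19 and Dll4 in 22. The summed level of that list lay between 740 and 11622 TPM, with the lowest sum in cell 4-6. Of the early blood list, Cd34 was above TPM 1 in 50 cells, the leukocyte genes Lcp1 and Laptm5 in 49 and 48, and Itga2b, the gene of CD41, in 40, while Myb and Spn were listed at 0 in every cell. Of the mesenchymal list, 7 of 11 genes had a row, none passed TPM 1 in 20% of cells, and the highest summed level in a cell was 84.2 TPM.

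Runx1 and Cbfb were both held by most cells. Runx1 was above TPM 1 in 43 of 50 cells (86%, exact Clopper-Pearson 95% interval 73.3% to 94.2%), with a lowest level of 0.163 TPM, a median of 132 and a highest of 913 in cell 1-2. Cbfb was above TPM 1 in 40 of 50 cells (80%, 66.3% to 90%), with a lowest level of 0, a median of 42.4 and a highest of 221 in cell 4-12. The intervals cover counting error over cells only. Of all rows 76.6% passed TPM 1 in 20% of cells or more, and 4 of the 5 genes were among them, all but Gfi1b.

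The targets were patchier. Gfi1 was above TPM 1 in 17 of 50 cells (34%, 21.2% to 48.8%), with a lowest level and a median of 0 and a highest of 161 TPM in cell 2-8. Sfpi1 was above TPM 1 in 24 of 50 cells (48%, 33.7% to 62.6%), with a lowest level of 0, a median of 0.648 and a highest of 3843 TPM in cell 4-6. Gfi1b was above TPM 1 in 1 of 50 cells (2%, 0.0506% to 10.6%), cell 3-8 with 4.1 TPM. Its only other value above 0 was 0.376 TPM in cell 3-12, and it was listed at 0 in the other 48 cells. A listed 0 is not a proof of absence here, since Tbp, a general transcription factor of all cells, was at 0 in 13 cells and Hprt, a housekeeping enzyme, in 3.

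**Figure D1:**
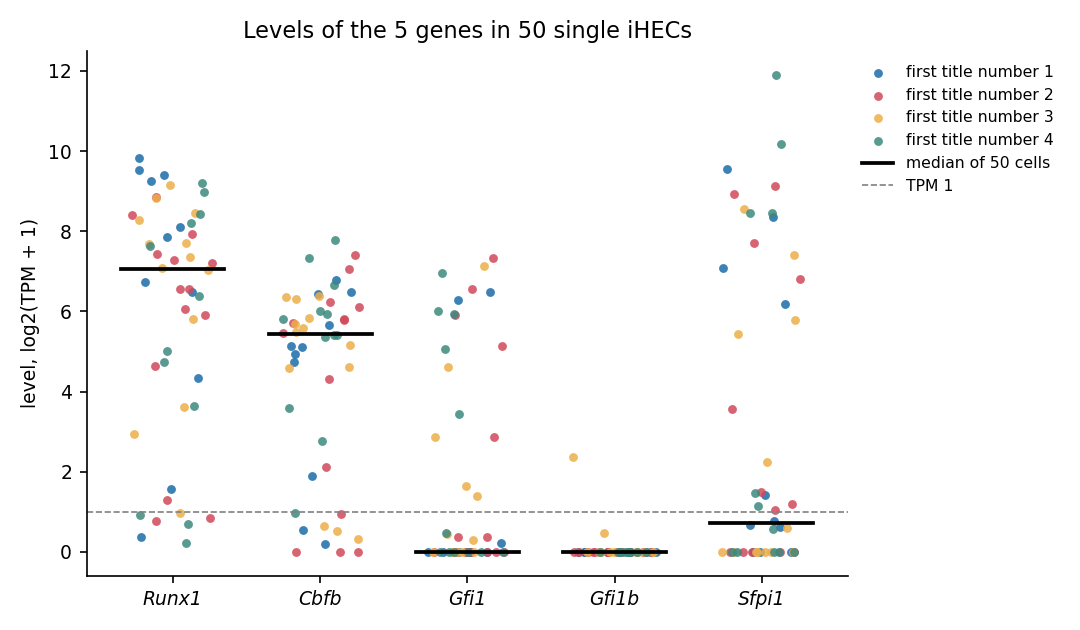
Level of each of the 5 genes in each of the 50 cells, as log2(TPM + 1), with 1 point per cell coloured by the first number of its title, a black bar at the median and a dashed line at TPM 1. Most points of Runx1 and Cbfb lie in a broad upper cloud, while Gfi1 and Sfpi1 split into cells near 0 and cells well above it, and Gfi1b passes TPM 1 in 1 cell.

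The levels of Runx1 were broadly spread. Of the 43 cells above TPM 1, 27 were above 100 TPM, 13 lay between 10 and 100 and 3 between 1 and 10, and every cell had some value above 0. The values just above and just below TPM 1 were 1.46 and 0.960. Cbfb was narrower, with 32 cells between 10 and 100 TPM, 5 above 100 and 3 between 1 and 10, and with values of 2.68 and 0.945 on either side of TPM 1. Gfi1 had 3 cells above 100 TPM, 9 between 10 and 100 and 5 between 1 and 10, and its values next to TPM 1 were 1.61 and 0.387. Sfpi1 had 13 cells above 100 TPM but only 4 between 10 and 100, and 7 of its cells lay between 1 and 10, with 1.07 and 0.695 next to TPM 1. At TPM above 10 the share of cells was 34% for Sfpi1 and 74% for Cbfb, and at TPM above 0 it was 58% and 94%.

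Where they were held, Runx1 and Sfpi1 stood high among the genes of the same cell. The median percentile of Runx1 among all rows of the same cell was 89.3 in the cells where it was above TPM 1. For Sfpi1 in its own cells the median percentile was 86.0, for Gfi1 77.0 and for Cbfb 73.7, while Gfi1b in its 1 cell stood at 33.2. Taking only cells where a gene passed TPM 1 leaves out its low ranks, and no such percentile is given for other rows. The SD of log2(TPM + 1) over the cells was 3.77 for Sfpi1, which ranked at place 9 of the 9104 rows that passed TPM 1 in 20% of cells. Runx1 followed with 2.93 (place 457), Gfi1 with 2.62 (place 1599) and Cbfb with 2.37 (place 3143). Cell 4-6 alone held 42.7% of the Sfpi1 TPM summed over the cells, and the top 3 cells held 63.7%. Without cell 4-6 the highest Sfpi1 level was 1149 TPM, in cell 4-2, and the share of cells with Sfpi1 was 46.9%.

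Cell 4-6 differed from the rest in its Sfpi1 level, which put the gene at place 52 of that cell. In the same cell Runx1 was at 0.880 TPM, Cbfb at 0.945 and Gfi1 at 0, a state of these 3 genes that cell 2-16 shared. Of the 24 endothelial genes 14 were above TPM 1 there, and its most abundant genes outside ribosomal protein genes were Ifitm2, Uqcrq, Tceb2, Fth1 and Ifitm1. The part of its low number of genes in these values was not tested.

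The 4 first numbers of the titles, whose meaning the labels do not give, hold 11, 14, 13 and 12 cells. Over these 4 sets the share of cells with Runx1 lay between 75% and 92.3%, that of Cbfb between 71.4% and 91.7%, that of Gfi1 between 18.2% and 41.7% and that of Sfpi1 between 38.5% and 57.1%. The first number took 3.63% of the variance of log2(TPM + 1) of Runx1 over the cells, 3.5% for Cbfb, 3.02% for Gfi1 and 1.39% for Sfpi1.

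Runx1 and Cbfb were found together in 35 of 50 cells (70%, 55.4% to 82.1%). Runx1 without Cbfb was seen in 8 cells, Cbfb without Runx1 in 5 and neither in 2, cells 2-16 and 4-6. The 5 cells with Cbfb alone of the pair were 1-8, 2-2, 3-11, 4-13 and 4-14, and cell 4-13 held 161 TPM of Cbfb with the lowest Runx1 level of all, 0.163. In the opposite corner, cell 1-1 held 275 TPM of Runx1 with 0.464 of Cbfb, and cell 3-5 held 206 with 0.252. Runx1 was the higher of the pair in 39 cells and the lower in 11. Where both were above TPM 1, the median ratio of Runx1 to Cbfb was 5.49, with a range of 0.0842 to 39.6. Their Spearman rank correlation over the 50 cells (rho) was 0.18.

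**Figure D2:**
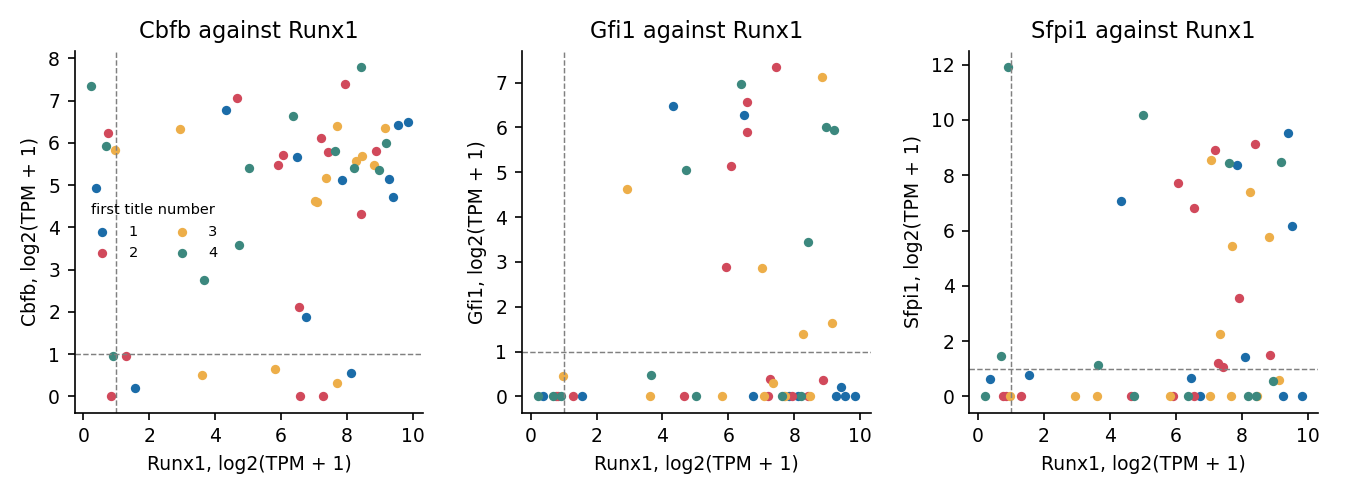
Level of Cbfb, Gfi1 and Sfpi1 against that of Runx1 in the same cell, all as log2(TPM + 1), with 1 point per cell coloured by the first title number and dashed lines at TPM 1. The left side of the Gfi1 panel, where Runx1 is at or below TPM 1, holds no cell with Gfi1 above TPM 1, and the cell at the top left of the Sfpi1 panel is cell 4-6.

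Runx1 made up most of the RUNX message in these cells. Of the summed TPM of Runx1, Runx2 and Runx3, Runx1 took a median of 100% over the 43 cells with Runx1 above TPM 1 and at least 90% in 42 of them, with a lowest share of 60.1% in cell 2-6. The related genes are known for roles in bone (Runx2) and in lymphocytes and nerves (Runx3). Runx3 was above TPM 1 in 4 cells, with 9.86 TPM in cell 1-10, 97.4 in cell 2-6, 30.7 in cell 3-2 and 21.1 in cell 4-7, and in each of these Runx1 was higher. Runx2 passed TPM 1 in 1 cell.

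At least 1 of the 3 targets was above TPM 1 in 34 of 50 cells (68%, 53.3% to 80.5%). Gfi1 and Sfpi1 were both held by 7 cells, Gfi1 without Sfpi1 by 10, Sfpi1 without Gfi1 by 17 and neither by 16. All 3 targets were held by cell 3-8 alone (2%, 0.0506% to 10.6%), which is also the only cell with Gfi1 and Gfi1b. Cell 3-8 had 454 TPM of Runx1, 43.5 of Cbfb, 139 of Gfi1, 4.1 of Gfi1b and 54.1 of Sfpi1, and with 8615 it had more genes above TPM 1 than any other cell. At a level of 10 TPM, Gfi1 was held by 12 cells and Sfpi1 by 17, and 5 cells held both. The rho of Gfi1 with Sfpi1 was -0.0064.

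All 17 cells with Gfi1 were also above TPM 1 in Runx1. Gfi1 was thus found in 17 of 43 cells with Runx1 (39.5%, 25% to 55.6%) and in 0 of 7 cells without it, where 3 counts of 7 allow a share of up to 42.9%. These intervals overlap. Of the 181 other rows above TPM 1 in 17 cells, 18 (9.94%) were likewise found in none of these 7 cells. Of the 7 cells 3 had under 5000 genes above TPM 1, beside 7 such cells among all 50, and the median number of genes was 5730 in the cells without Runx1 and 6243 in those with it. The part of this lower detection in the counts was not tested. Sfpi1 was found in 22 of the 43 cells with Runx1 (51.2%, 35.5% to 66.7%) and in 2 of the 7 without it (28.6%, 3.67% to 71.0%), which were cell 4-6 and cell 4-14 with 1.76 TPM of Sfpi1. Among the 35 cells with both Runx1 and Cbfb, 16 held Gfi1 (45.7%, 28.8% to 63.4%), against 1 of the other 15 (6.67%, 0.169% to 31.9%). That cell was 2-1, with 94.0 TPM each of Runx1 and Gfi1 and with Cbfb listed at 0. Sfpi1 was found in 20 of the 35 (57.1%, 39.4% to 73.7%) and in 4 of the other 15 (26.7%, 7.79% to 55.1%). These counts compare cells within 1 sample and no test was made of them. For the 35 and 15 cells, the share of other rows with as uneven a split was not counted. The 15 include cells 1-4, 4-6, 4-13 and 4-14, which had under 5000 genes above TPM 1.

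Cells at the top of Runx1 did not all hold a target. Of the 27 cells with Runx1 above 100 TPM, 8 held Gfi1 (29.6%, 13.8% to 50.2%) and 17 held Sfpi1 (63.0%, 42.4% to 80.6%). The 2 cells with the most Runx1, 1-2 with 913 TPM and 1-10 with 742 TPM, both had Gfi1 listed at 0, and cell 1-10 held 71.3 TPM of Sfpi1. The rho of Runx1 with Gfi1 was 0.11 and that with Sfpi1 0.24.

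**Figure D3:**
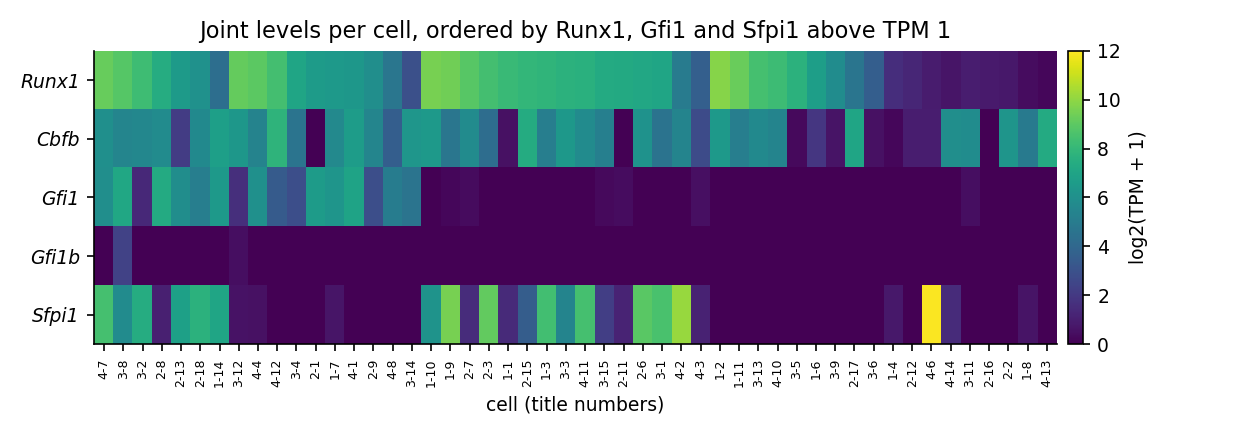
Level of the 5 genes in each of the 50 cells as a colour of log2(TPM + 1), with 1 column per cell, ordered by whether Runx1, Gfi1 and Sfpi1 were above TPM 1 and then by the Runx1 level. The 17 cells with Gfi1 stand at the left, 7 of them with Sfpi1, and the 7 cells with Runx1 at or below TPM 1 stand at the right with no Gfi1.

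The cells took 12 of the possible on and off patterns of the 5 genes. The most frequent was Runx1 with Cbfb and Sfpi1 in 13 cells, followed by Runx1 with Cbfb and Gfi1 in 9. Runx1 with Cbfb and no target was found in 6 cells, and the same number held both with Gfi1 and Sfpi1. Runx1 alone was found in 5 cells, Cbfb alone in 4 and Runx1 with Sfpi1 in 2. The remaining 5 patterns had 1 cell each, among them cell 2-16, in which none of the 5 genes was above TPM 1.

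The correlations among Runx1, Cbfb, Gfi1 and Sfpi1 were weak. Over 6 pairs rho lay between -0.0064 and 0.24, and in none of the alternative settings did its size exceed 0.385. The cells share their preparation and have unknown depth, and the rho of a gene with the number of genes per cell was 0.28 for Runx1, 0.19 for Cbfb, 0.11 for Gfi1 and -0.11 for Sfpi1. With that number held constant (a partial rho) the pair Runx1 and Sfpi1 was at 0.29 and the pair Runx1 and Cbfb at 0.13. Within the 4 first title numbers the rho of Runx1 with Sfpi1 ran from -0.051 to 0.66 and that of Runx1 with Gfi1 from -0.20 to 0.54, so their sign was not the same in each. Of the 6 pairs 3 also changed sign in at least 1 alternative setting, Runx1 with Gfi1 (-0.031 without first title number 4), Cbfb with Sfpi1 and Gfi1 with Sfpi1. The rho of Runx1 with Cbfb was above 0 in all 4, from 0.13 to 0.30. No rho is given for Gfi1b, which was above 0 in 2 cells.

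The genes most alike in pattern to each of the 4 were taken from the rows above TPM 1 in 20% of cells or more, by rho over the 50 cells. Among the 9103 other rows, 6.49% had a rho of 0.3 or more with Runx1 and 1.03% a rho of -0.3 or less. For Cbfb these shares were 3.3% and 0.725%, for Gfi1 3.1% and 0.912% and for Sfpi1 1.13% and 3.1%. The median rho over all rows was 0.071 with Runx1, 0.037 with Cbfb, 0.033 with Gfi1 and -0.037 with Sfpi1. The genes named next are the extremes of these distributions, and nothing is read from their size alone.

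With Runx1, the highest rho was that of Txlna (0.63), which codes a syntaxin-binding protein of vesicle traffic. It was above TPM 1 in 38 cells with a median of 16.8 TPM, and its rho lay between 0.49 and 0.70 in the 4 first title numbers. Next came Fut8 (0.57), the enzyme that adds core fucose to glycoproteins, which was above TPM 1 in 29 cells, all of them cells with Runx1, as were those of 2 of the 167 rows found in 29 cells (1.2%, Fut8 included). Trim44 (0.56), Gpr56 (0.55) and Ttc39b (0.54) followed. Gpr56, now Adgrg1, codes an adhesion receptor of blood stem cells, and it was found in 39 of the 43 cells with Runx1 and 1 of the 7 without. Of the 205 rows found in as many cells, 0.976% overlapped Runx1 as much, Gpr56 included. The rho of Gpr56 with the number of genes per cell was 0.41, and with that number held constant its rho with Runx1 was 0.50.

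The lowest rho with Runx1 was that of Eltd1, now Adgrl4, an adhesion receptor of endothelial cells. It had a rho of -0.48 (-0.68 to -0.34 in the 4 first title numbers) and a median of 112 TPM with a range of 0.508 to 647. It was above TPM 1 in 48 cells, among them all 7 without Runx1. Of the 334 rows found in 48 cells, 39.2% were likewise found in all 7. Ednrb, the endothelin B receptor, had a rho of -0.46 and was found in 31 of the 43 cells with Runx1 and 7 of 7 without. Of the 202 rows found in as many cells, 2.48% were likewise found in all 7. Lamb1, a laminin chain of basement membrane, had a rho of -0.45. Without cell 4-6 these values were -0.51, -0.49 and -0.51.

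With Cbfb, the highest rho was that of Mpdu1 (0.54), which codes a protein needed to use dolichol sugars in glycosylation, with 0.36 to 0.62 in the 4 first title numbers. Gcc2 (0.51), a golgin, was above TPM 1 in 30 cells, of which 29 held Cbfb. Of the 162 rows found in 30 cells, 0.617% overlapped Cbfb as much, Gcc2 included. Smad4 (0.49), the shared mediator of TGF-β and BMP signals, had a rho below 0 in 1 of the 4 first title numbers (-0.070). Klf10 (0.49), an early gene of the TGF-β response, and Rab10 (0.48), a GTPase of vesicle traffic, followed. The lowest were Trim25 (-0.42), a ubiquitin ligase, Slc35a2 (-0.42), the carrier of UDP-galactose, and Whrn (-0.40), a scaffold protein. The ends of Cbfb were the least extreme of the 4 genes.

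With Gfi1, the highest rho was that of Slc18a2 (0.63), the gene of the vesicular monoamine transporter. It was above TPM 1 in 17 of 17 cells with Gfi1 and in 20 of the 33 others, with a median of 58.1 and a highest level of 225 TPM over all cells, and its rho lay between 0.54 and 0.78 in the 4 first title numbers. Of the 196 rows found in as many cells, 0.51% were found in all 17 cells with Gfi1, Slc18a2 included. Pou2f1 (0.52), an octamer-binding factor, Ttc3 (0.52), a ubiquitin ligase, Apoe (0.52), a lipid carrier, and Fnip2 (0.51), a partner of folliculin, followed. Apoe was above TPM 1 in every cell, from 12.3 to 6214 TPM. Within the 17 cells with Gfi1, its rho with Gfi1 was -0.30.

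The lowest rho with Gfi1 was that of Pcdh12 (-0.60), which codes a protocadherin of endothelial junctions. Pcdh12 was above TPM 1 in 19 cells, with a highest level of 57.5 TPM, and none of these was among the 17 cells with Gfi1, while 14 cells held neither. Mall (-0.51), a protein of lipid rafts, was above TPM 1 in 12 cells, again none of them with Gfi1. Among rows found in as many cells, none of the cells held Gfi1 for 1 of 177 rows (0.565%) at 19 cells and 1 of 197 (0.508%) at 12 cells, and these were Pcdh12 and Mall themselves, which their low rho with Gfi1 had chosen. In the 4 first title numbers the rho of Pcdh12 lay between -0.82 and -0.34 and that of Mall between -0.67 and -0.28. Tceb2 (now Elob, -0.44), the elongin B subunit, was above TPM 1 in every cell.

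**Figure D4:**
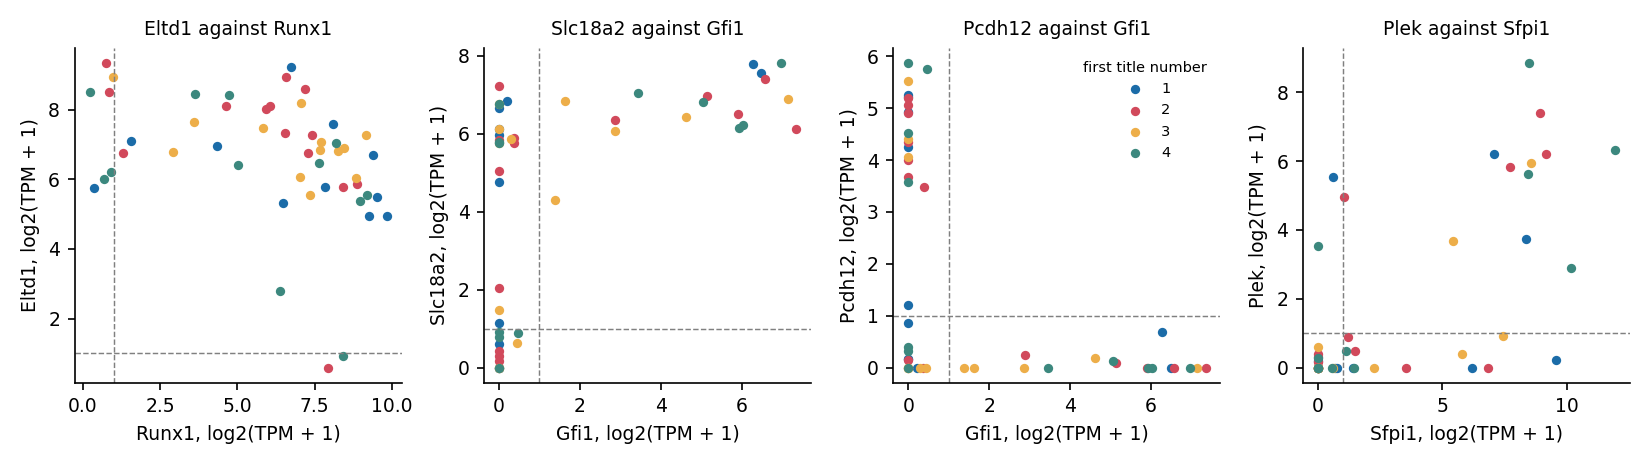
Level of a gene named for its likeness or opposition against the level of Runx1, Gfi1 or Sfpi1 in the same cell, as log2(TPM + 1), with 1 point per cell coloured by the first title number and dashed lines at TPM 1. Eltd1 tends to be lower where Runx1 is higher (rho -0.48), Slc18a2 is above TPM 1 wherever Gfi1 is, Pcdh12 is above TPM 1 only in cells where Gfi1 is not, and 12 of the 14 cells with Plek hold Sfpi1.

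With Sfpi1, the highest rho was that of Plek (0.61), the gene of pleckstrin, a protein kinase C substrate of platelets and leukocytes. Plek was above TPM 1 in 14 cells, 12 of them with Sfpi1, and reached 461 TPM. Vdr (0.53), the vitamin D receptor, was above TPM 1 in 15 cells, also 12 of them with Sfpi1, and its rho lay between 0.50 and 0.62 in the 4 first title numbers. Plcg2 (0.51), a phospholipase of immune receptor signals, was found in 23 of the 24 cells with Sfpi1 and 20 of the 26 others. Rpl8 (0.48), a ribosomal protein, had a rho near 0 (-0.016) in 1 of the first title numbers. Gpc3 (0.47), a glypican of the cell surface, was above TPM 1 in 19 cells, 15 of them with Sfpi1. Some rows found in as many cells overlapped Sfpi1 as much. Their share was 0.559% for Plek, 0.541% for Vdr, 0.837% for Plcg2 and 0.565% for Gpc3. Each share counts the gene itself, which its high rho with Sfpi1 had chosen.

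The lowest rho with Sfpi1 was that of Pik3c2a (-0.59), a lipid kinase of endocytosis that endothelial cells need. Pik3c2a was above TPM 1 in 24 cells, of which 5 held Sfpi1. Nrp2 (-0.50), a co-receptor for VEGF and semaphorins on veins and lymphatic vessels, was found in 13 of the 24 cells with Sfpi1 and 23 of the 26 others. Among rows found in as many cells, the share that overlapped Sfpi1 as little was 0.559% for Pik3c2a and 3.33% for Nrp2, the gene included. Vdac2 (-0.49) codes a channel of the outer mitochondrial membrane and was above TPM 1 in every cell. Without cell 4-6 the rho of Plek was 0.58, that of Pik3c2a -0.58 and that of Nrp2 -0.48.

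Genes of the complex through which GFI1 and GFI1B repress varied in how many cells held them. All 10 genes of the corepressor list had a row and passed TPM 1 in 20% of cells, with a median of 37.5 cells a gene, beside 34 cells over all rows that passed. The histone deacetylase Hdac1 was above TPM 1 in 50 cells, Hdac2 in 49, Hmg20b in 47, Kdm1a, the gene of LSD1, in 46 and Rcor1, the gene of CoREST, in 42. The related Rcor3 was above TPM 1 in 19 cells and Phf21a, a reader protein of the complex, in 25. With Gfi1, 1 of the 10 had a rho of 0.3 or more, Rcor2 (0.34), beside 3.1% of all rows, and none had -0.3 or less. With Runx1 there were 2, Rcor2 (0.37) and Ehmt2 (0.36), a histone methyltransferase, beside 6.49% of all rows, and with Cbfb there was Kdm1a (0.37), beside 3.3%.

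Of the 24 endothelial genes, 3 had a rho of -0.3 or less with Gfi1, beside 0.912% of all rows. They were Sox7 (-0.38), a factor of endothelial fate, Robo4 (-0.33), a guidance receptor of vessels, and Hey1 (-0.30), a Notch target. One went the other way, Ets1 (0.37), a factor of endothelial and lymphoid genes, beside 3.1% of all rows at 0.3 or more. The median rho of the list with Gfi1 was -0.089, beside 0.033 over all rows, and 16 of the 24 lay below 0, beside 40.9% of all rows. In the 4 first title numbers the rho of Sox7 with Gfi1 ran from -0.67 to -0.069 and that of Hey1 from -0.60 to -0.12, while that of Robo4 (-0.74 to 0.22) and that of Ets1 (-0.18 to 0.80) crossed 0. With Runx1 none of the 24 passed -0.3, where 1.03% of all rows did, and the lowest was Cdh5 (-0.297), the gene of VE-cadherin. With the number of genes per cell held constant, Cdh5 was at -0.21 and Sox17 at -0.31. The median rho of the 24 with Runx1 was -0.088, beside 0.071 over all rows, and 16 of 24 lay below 0, beside 32.1% of all rows. With Cbfb none passed in either direction, beside 3.3% and 0.725% of all rows, and 14 of 24 lay below 0, beside 39.9%, with a median of -0.019 beside 0.037. With Sfpi1 none passed either, beside 1.13% and 3.1% of all rows, and 21 of 24 lay below 0, beside 60.1%, with a median of -0.034 that was close to the -0.037 of all rows.

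Of the list of RUNX cofactors, which also holds Runx2 and Runx3, 16 of 17 genes had a row and 12 passed TPM 1 in 20% of cells, beside 76.6% of all rows. The arginine methyltransferase Prmt1 was above TPM 1 in 49 cells, the Groucho corepressor Tle1 in 36 and the histone acetyltransferase Ep300 in 33. Tle1 was the only one of the 12 with a rho of 0.3 or more with Runx1 (0.34), beside 6.49% of all rows, and none passed with the other genes. Of the 7 genes of the blood factor complex, Fli1 was above TPM 1 in 50 cells and Lyl1 and Ldb1 each in 43. Of these 7, 3 passed with Runx1, Gata2 (0.41), Lmo2 (0.41) and Erg (0.34), where 6.49% of all rows did, and none passed with Cbfb, Gfi1 or Sfpi1. Tal1 (-0.19) and Fli1 (-0.033) lay below 0 with Runx1, and the median rho of the 7 was 0.17, beside 0.071 over all rows.

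Of the early blood list 11 of 15 genes passed TPM 1 in 20% of cells, beside 76.6% of all rows. With Sfpi1 their median rho was 0.27, beside -0.037 over all rows. Vav1 (0.34), an exchange factor of blood cells, and Ptpn6 (0.30), a phosphatase of blood cell signals, had a rho of 0.3 or more with Sfpi1, beside 1.13% of all rows, and Cd44 (0.298) lay just under that level. With Runx1 the median was 0.20, beside 0.071 over all rows, and Nfe2 (0.33) and Laptm5 (0.32) passed, beside 6.49% of all rows. With Gfi1 it was 0.0062, beside 0.033, and Itga2b and Nfe2 (both 0.31) passed, beside 3.1%. Itga2b also passed with Cbfb (0.31), beside 3.3%.

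The myeloid genes known as PU.1 targets ranged from absent to nearly general, with a median of 4 cells a gene beside 26 over all rows. Csf2rb, a shared cytokine receptor chain, was above TPM 1 in 49 cells, Fcer1g, a signalling adaptor, in 41 and Fcgr3 in 33. Of 20 genes 19 had a row, 8 passed TPM 1 in 20% of cells, beside 76.6% of all rows, and Itgam, Elane, Cebpe and Cybb were listed at 0 in every cell. Csf1r, the M-CSF receptor and a classic PU.1 target, was above TPM 1 in 3 cells. Tyrobp, a signalling adaptor of myeloid receptors, was the only one of the 8 with a rho of 0.3 or more with Sfpi1 (0.40), beside 1.13% of all rows. Their median rho with Sfpi1 was 0.065, beside -0.037 over all rows. The Fc receptor gene Fcgr3 passed with Runx1 (0.42), beside 6.49% of all rows, and lysozyme (Lyz2) with Gfi1 (0.36), beside 3.1%. The level of the myeloid list summed over a cell lay between 31.9 and 4685 TPM, and was 1943 in cell 4-6.

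Megakaryocyte and erythroid genes, which GFI1B is known to serve, were found in a median of 4 cells a gene, beside 26 over all rows. Of 19 genes 15 had a row and 5 passed TPM 1 in 20% of cells, beside 76.6% of all rows, and Gata1 was listed at 0 in every cell. Itgb3 was above TPM 1 in 46 cells and Car2, a carbonic anhydrase, in 42, and Car2 passed with Cbfb (0.37), beside 3.3% of all rows. Of the 9 pluripotent genes 2 had a row, Klf4, above TPM 1 in 12 cells with a rho of 0.31 with Sfpi1 (beside 1.13% of all rows at 0.3 or more), and Lin28a, above TPM 1 in 5 cells.

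Across all these lists, 24 pairs of a list gene with Runx1, Cbfb, Gfi1 or Sfpi1 had a rho of 0.3 or more in size. In 15 of them rho had the same sign in each of the 4 first title numbers, among them Tyrobp with Sfpi1 (0.24 to 0.54), Lmo2 with Runx1 (0.25 to 0.51) and Erg with Runx1 (0.23 to 0.38). Since all 24 were chosen by rho over the same cells, a shared sign is partly built in and is no separate support. How often other rows past the mark keep their sign was not counted. In the other 9 the sign was not the same in each. Beside Robo4 and Ets1 with Gfi1, these were Nfe2 (-0.20 to 0.70), Laptm5 (-0.082 to 0.43) and Fcgr3 (-0.018 to 0.70) with Runx1. They also held Kdm1a (-0.055 to 0.56), Itga2b (-0.11 to 0.43) and Car2 (-0.060 to 0.83) with Cbfb, and Vav1 with Sfpi1 (-0.080 to 0.69). With the number of genes per cell held constant, Ehmt2 (0.27), Nfe2 (0.29) and Laptm5 (0.23) with Runx1 no longer passed the mark. Nor did Itga2b with Cbfb (0.28), or Itga2b (0.29), Nfe2 (0.29) and Hey1 (-0.296) with Gfi1. Sox17 with Runx1 (-0.31), and Cd44 (0.34), Laptm5 (0.36) and Itga2b (0.32) with Sfpi1, passed it only then.

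**Figure D5:**
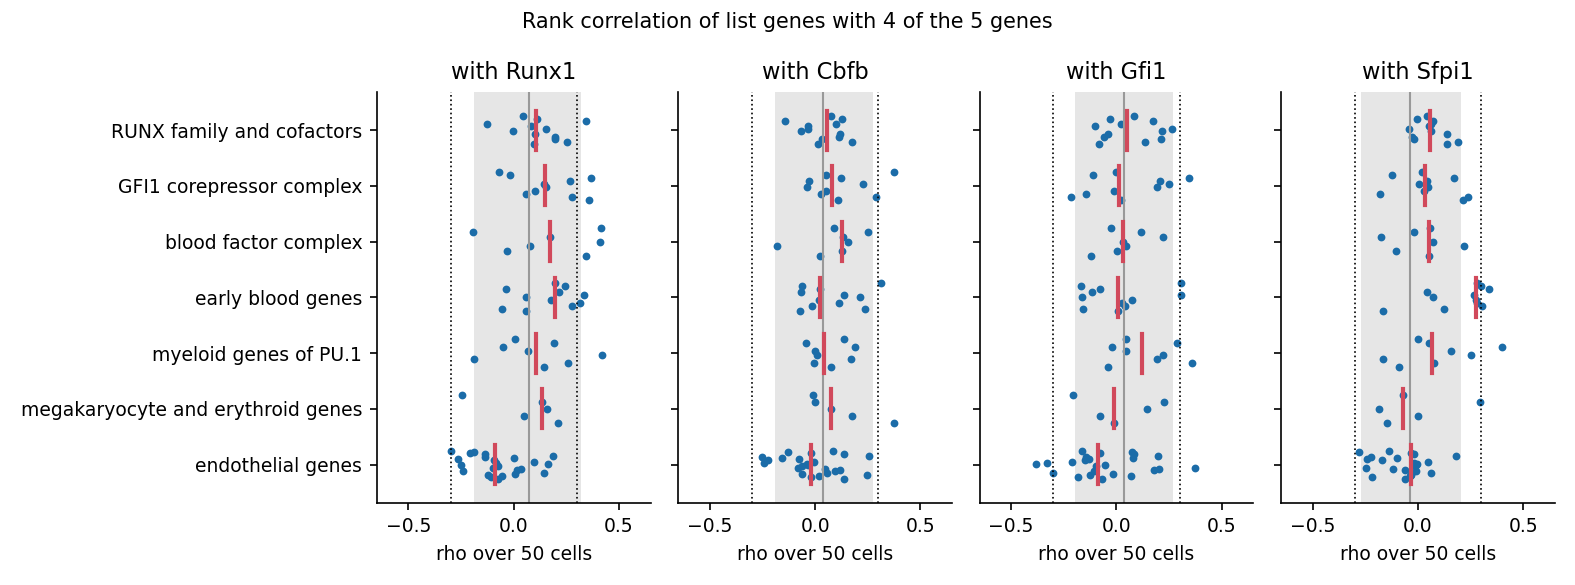
Rank correlation (rho over the 50 cells) of each list gene with Runx1, Cbfb, Gfi1 and Sfpi1, with 1 blue point per gene and a red bar at the list median. Grey bands span percentiles 5 to 95 of all 9103 rows, grey lines mark their median and dotted lines stand at -0.3 and 0.3. The early blood genes lie to the right with Sfpi1, at a median of 0.27, and 3 endothelial genes lie at or beyond -0.3 with Gfi1.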

How the data were processed

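Single iRunx1-iHECs were sorted, their cDNA was amplified with a whole-transcriptome kit for which no molecular identifiers were named, and 1 library was made per cell. The authors aligned the reads to mm10 with HISAT2 (version 2.1.0) and estimated expression with StringTie (version 1.3.4). SAMtools (version 0.1.19) and bcl2fastq are also in the submitters' processing notes. The deposited values are the TPM estimates of the authors for each gene in each cell, with columns that sum to between 942975 and 970894 over the 11879 rows. TPM keeps no depth.

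From these values the share of cells above TPM 1 was computed with exact Clopper-Pearson 95% intervals, which cover counting error only, since amplified copies are not independent molecules. A count of 0 was given the limit of 3 counts. Spearman's rho over the 50 cells was used as a description, with no p. It was computed against all rows above TPM 1 in at least 20% of cells (9104 rows, so 9103 others per gene) and recomputed within each first title number and with the number of genes per cell held constant. A rho of 0.3 was used as the mark for the lists. Log values are log2(TPM + 1). The named genes were the 5 genes, the 5 rows with the highest and the 3 with the lowest rho for each, the 2 to 4 list genes found in most cells, and list genes past the mark. Some list genes outside this rule, such as Csf1r, Myb, Spn, Gata1, Cd44, Rcor1, Rcor3 and Phf21a, and single cells were named after their values were seen. The genes and the 9 lists were chosen with earlier results of these data known. The script was tested on simulated data. Gene positions are from GENCODE M21 on GRCm38 and promoter windows from RefSeq on GRCm38.p6. Python (version 3.11.15), pandas (version 2.3.3), NumPy (version 2.4.6), SciPy (version 1.17.1) and matplotlib (version 3.10.9) were used. Cells were not clustered, doublets were not called and no cell was left out.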

Additional observations from a re-analysis of the deposited data

How the results depend on the processing

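Alternatives were other levels for expression, other correlations and filters, cells with fewer than 5000 genes left out, TPM rescaled without the 81 ribosomal protein rows, the cells of each first title number removed, and, chosen after seeing the data, cell 4-6 left out. Of 547 recomputed values 525 did not move beyond their limits, 22 moved, and no rho of the 32 pairs of a gene with its most alike or opposed genes changed sign. Those 32 pairs were chosen as extremes over the same cells, most of which the alternatives reuse. The kept sign is therefore no support for them. Within a single first title number, Smad4 with Cbfb (-0.070) and Rpl8 with Sfpi1 (-0.016) did lie below 0. Of the 6 pairs among Runx1, Cbfb, Gfi1 and Sfpi1, 3 changed sign. Runx1 with Gfi1 went to -0.031 without first title number 4 and -0.017 without cells of fewer than 5000 genes, Cbfb with Sfpi1 reached -0.020 and Gfi1 with Sfpi1 0.12. Limits were the exact interval for a share and the SD of the 4 values within first title numbers for a rho. This SD was 0.40 for Smad4 with Cbfb and 0.31 for Runx1 with Gfi1, so the limits of a rho were wide. The sign changes of the 3 pairs lay within them, and the 525 unmoved values are therefore no proof of stability. With every value above 0 counted, Runx1 was found in 100%, Cbfb in 94% and both in 94% of cells. The 7 cells described as without Runx1 thus all had a Runx1 value above 0, from 0.163 to 0.960 TPM. That split of the cells depends on the level of TPM 1. With the level raised to 5 or to 10 TPM, the shares of cells with Gfi1b, with Gfi1 and Gfi1b, and with all 3 targets were each 0%, and at 10 TPM any target was found in 48% of cells. Without first title number 3, which holds cell 3-8, the shares with Gfi1b, with Gfi1 and Gfi1b, and with all 3 targets were also 0%. Leaving out the cells of 1 first title number at a time, Runx1 stayed between 83.8% and 89.5%, Cbfb between 76.3% and 83.3%, Gfi1 between 31.6% and 38.5% and Sfpi1 between 44.4% and 51.4%. Of the 5 genes most like Cbfb, 3 stayed among its top 50 without first title number 1, for which the cause was not tested. Of the 5 most like Sfpi1, 2 stayed with a filter of 50% of cells, since the filter removes the rest by construction. Among named genes, Txlna fell to a rho of 0.53 with Runx1 and Vdr to 0.41 with Sfpi1 when cells with fewer than 5000 genes were left out. By Pearson's r of log2(TPM + 0.1), Lamb1 was at -0.25 and Ednrb at -0.37 with Runx1 and Slc18a2 at 0.53 with Gfi1. Ednrb was also at -0.36 with a pseudocount of 1 and at -0.39 without first title number 1. No paired analysis was possible because only 1 group exists. With 50 cells of unknown depth, an absence of Gfi1b or a myeloid gene means only that it was not detected.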
